A study of Mus musculus with 7 samples.

Results

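Induced pluripotent stem cell (iPSC) lines made from lineage-negative mouse bone marrow were set against a line made from lineage-positive marrow. The comparison used 4 of the 7 Illumina bead arrays of the series, with 1 RNA sample on each. LinNeg_iPSC comprised 3 lines, called 1.1.2, 7 and 9, and LinPos_iPSC was the single line 1.1. All cells carried the OG2 strain background, a mouse strain whose green fluorescent protein reporter is driven by regulatory sequence of Pou5f1. The other arrays held lineage-negative marrow itself (LinNeg_BM), embryonic stem cells (ESC) and iPSCs from embryonic fibroblasts (MEF_iPSC), each also OG2 and each a single array. ESC served to tell which side of a difference stood apart. Every sample is labelled with bone marrow as its tissue, ESC and MEF_iPSC included, and the cell type label was used to form the groups. The labels do not state the reprogramming vector, the passage, or whether the lines came from separate animals, and p-values therefore measure the spread between these 3 lines only. Lineage-positive cells were represented by 1 line, so origin and line cannot be told apart.

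Of 25697 probes, 11955 had a detection p-value under 0.01, the limit used here for "above background", on at least 1 of the 4 arrays. The named probes among them gave 8289 genes. Between 10707 and 10904 probes were above background on each of the 4 arrays. Values below are normalized log2 intensities, in the order of lines 1.1.2, 7 and 9 where 3 are given. A difference is the mean of the 3 lines minus LinPos_iPSC on that scale. Between the lines a gene's SD had a median of 0.17. The lowest value above background lay between 5.50 and 5.57 on the 4 arrays. Readings under it are printed as they stand, but a difference from them is only a bound. Such bounds are written as at least N-fold, and not every one is printed.

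Lineage-negative marrow is the fraction left when cells bearing surface proteins of mature blood cells are removed, and it is rich in stem and progenitor cells. Lineage-positive marrow holds the maturing granulocytes, monocytes, lymphocytes and erythroid cells. Mouse pluripotent cells are held by a network around Pou5f1, Sox2 and Nanog. Cultures of such cells are known to be mixtures, in which genes such as Zfp42 mark the naive state and a small, changing fraction of cells switches on Zscan4 and other transcripts of the early embryo. A bead array reads the average of a culture, so a lower share of expressing cells and a lower level per cell cannot be told apart.

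The labels were checked against defining markers, and all 4 marrow iPSC arrays expressed those of pluripotent cells. Pou5f1, the central transcription factor, read 12.95, 12.87 and 12.83 in the lines and 13.06 in LinPos_iPSC. Nanog read 12.66, 12.42 and 12.57 against 12.77. The blood markers Ptprc, the surface protein CD45, and Spi1, a myeloid transcription factor, were below background on all 4 arrays and above it in LinNeg_BM. Of 18 granulocyte and monocyte genes on the array, 0 or 1 was above background in each line and 1 in LinPos_iPSC, against 17 in LinNeg_BM. The endoderm factor Gata4 was below background on all 4 arrays. Sox17, another endoderm factor, was above background in lines 1.1.2 and 9 only, and the fibroblast collagen gene Col3a1 in the 3 lines only. Col1a1, a second fibroblast collagen gene, was above background on all 4 arrays, at 6.41, 7.16 and 6.14 against 6.22 in LinPos_iPSC.

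LinPos_iPSC differed from each LinNeg_iPSC line at more genes than the lines differed from one another. Over 8454 genes above background on at least 1 pluripotent array, a difference of 2-fold or more was seen at 330 genes between LinPos_iPSC and line 1.1.2, at 385 for line 7 and at 319 for line 9. Between lines 7 and 9 the count was 39, between 1.1.2 and 9 it was 82, and between 1.1.2 and 7 it was 99. LinPos_iPSC differed from ESC at 376 genes, whereas the lines differed from ESC at 112, 263 and 242. The highest count of any pair was between LinPos_iPSC and MEF_iPSC, at 488 genes. MEF_iPSC, also a single array, differed from ESC at 305 genes and from lines 1.1.2, 7 and 9 at 279, 239 and 209. These are counts of single array pairs and carry no test.

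**Figure D1:**
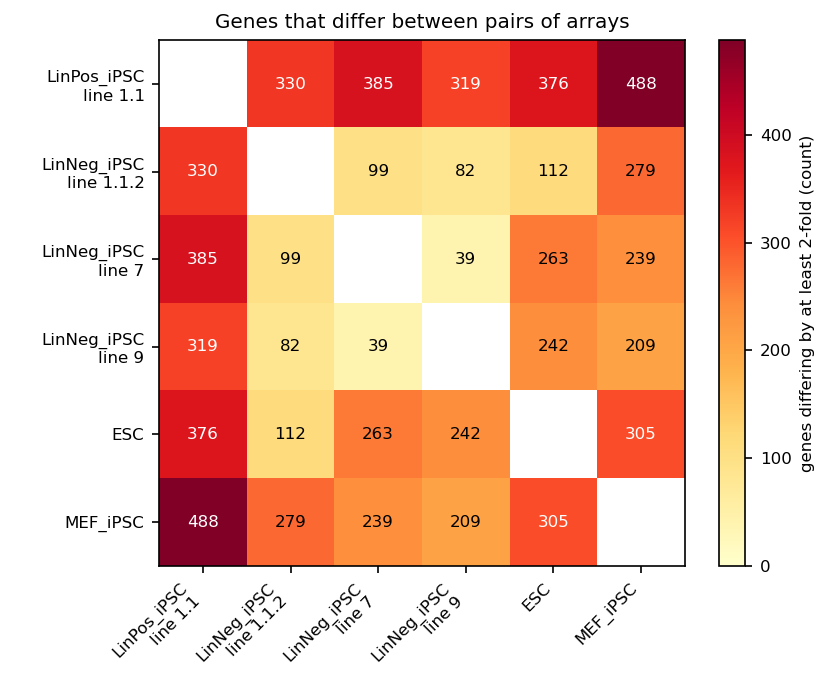
Number of genes, of 8454, that differed by at least 2-fold between each pair of pluripotent arrays (colour scale, count). The 3 LinNeg_iPSC lines differ from one another at 39 to 99 genes and from LinPos_iPSC at 319 to 385.

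The test called 29 genes, of which 26 were higher in the LinNeg_iPSC lines and 3 lower (limma, Benjamini-Hochberg adjusted p under 0.05). That is 0.35% of the 8289 genes tested, with 0.314% higher and 0.0362% lower. With dim values raised to the bound, 27 differed by 2-fold or more, and the exceptions were Aspg (at least 1.93-fold) and Gm20767 (at least 1.68-fold, named here after its value was seen). In all 29 the 3 lines lay on one side of LinPos_iPSC. Among all genes the 3 lines lay above LinPos_iPSC at 2686, or 32.4%, and below it at 2662, or 32.1%, so a common side is frequent. Leaving out line 1.1.2, line 7 or line 9 left 0 genes past the test (limma). Without these lines in turn, 1542, 1076 and 1215 genes had an unadjusted p under 0.05, against 1423 with all lines (17.17% of genes, 8.855% higher and 8.312% lower). All 29 genes kept their direction each time, with adjusted p between 0.0607 and 0.16.

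Most of the 29 genes were those at which LinPos_iPSC, not the LinNeg_iPSC lines, stood away from ESC. Of the 26 higher genes, 24 had ESC nearer to the mean of the lines, and 17 were below background in LinPos_iPSC. Across all 8289 genes, ESC was nearer to the lines at 58.79%, beside which the 24 of 26 should be read. LinPos_iPSC held the highest or lowest value of the 6 pluripotent arrays at 28 of the 29. At all 29 it already lay beyond the 3 lines, and the same share over all genes was not computed. The loss of signal was not one-sided over the array as a whole. LinPos_iPSC alone was below background, with all 3 lines above it, at 192 genes (2.316%), and the reverse held at 183 genes (2.208%).

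**Figure D2:**
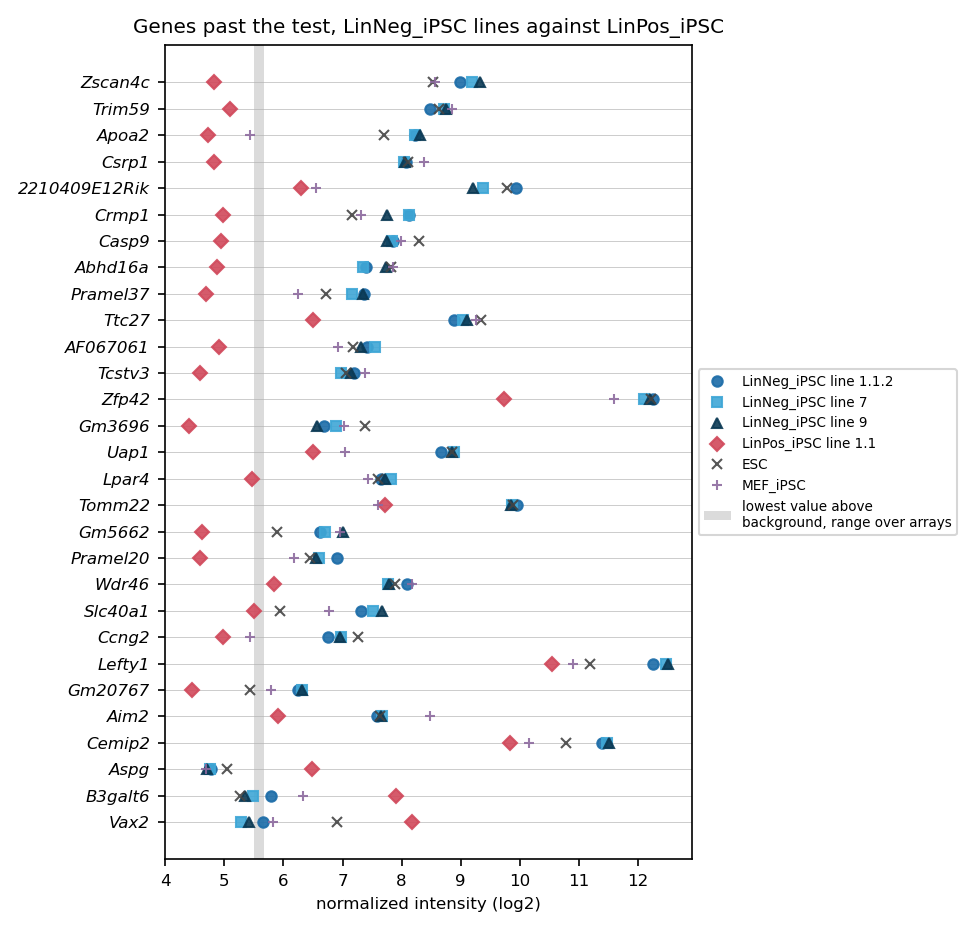
Normalized log2 intensity (x axis) of the 29 genes past the test on 6 pluripotent arrays, with the grey band marking the lowest value above background on each array. LinPos_iPSC lies left of the 3 lines in 26 genes, 17 of them below background, and right of them in Aspg, B3galt6 and Vax2.

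All measured genes of an early embryo list were higher in the 3 lines than in LinPos_iPSC. Zscan4c encodes a zinc finger protein of the mouse 2-cell embryo that is known for its role at telomeres in embryonic stem cells. It read 8.98, 9.19 and 9.33 in the lines, 4.82 in LinPos_iPSC, 8.53 in ESC and 8.57 in MEF_iPSC. All 5 other pluripotent arrays were thus bright and LinPos_iPSC was below background. The difference was at least 12.3-fold (limma, adjusted p = 0.0112). Tcstv3, a transcript of the same stage, read 7.19, 6.97 and 7.15 against 4.59, at least 2.95-fold (adjusted p = 0.0221). AF067061, from the same gene cluster on chromosome 13, read 7.41, 7.55 and 7.31 against 4.91, at least 3.68-fold. Pramel37, a member of the PRAME-like family, read 7.37, 7.15 and 7.34 against 4.69, at least 3.35-fold. Gm5662 read 6.61, 6.71 and 7.01 against 4.61, at least 2.35-fold. In none of these genes did the lines overlap LinPos_iPSC, and in each of them LinPos_iPSC was below background.

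Of 26 genes listed for this group, 19 were on the array and 9 were measured above background on at least 1 of the 4 arrays. All 9 had the 3 lines above LinPos_iPSC, as did 32.4% of all genes. Of the 9, 5 passed the test, beside 0.314% of all genes, and 8 were higher at an unadjusted p under 0.05, beside 8.855%. Their median difference was 2.37, or 1.51 with dim values raised to the bound, beside a median of 0.0038 over all 8289 genes. The 5 that passed were Zscan4c, Pramel37, AF067061, Tcstv3 and Gm5662. Gm428 was at least 2.84-fold brighter in the lines (adjusted p = 0.0776), Tcstv1 at least 2.64-fold (adjusted p = 0.0907) and Tmem92 at least 1.22-fold (adjusted p = 0.0625), and these did not pass. Eif1ad, a translation initiation factor relative that every array expressed, differed by 0.27. Of the 9, 8 were below background in LinPos_iPSC and passed the filter through the lines, which largely fixed their direction in advance. The list was also chosen with earlier results of these data known. Its counts beside all genes are therefore description and give no test of the group. The members share sequence: probes for the Zscan4 family, for Tcstv1, Tcstv3, AF067061 and Gm20767, and for the Pramel genes may read several near-identical copies, so the gene within each family is uncertain.

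**Figure D3:**
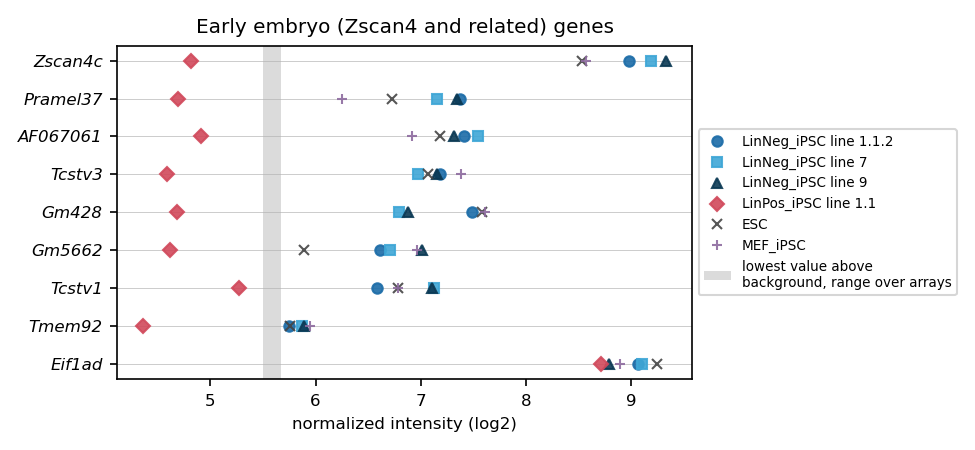
Normalized log2 intensity (x axis) of the 9 measured early embryo genes on 6 pluripotent arrays, with the grey band marking the lowest value above background. LinPos_iPSC is below the band in 8 genes, while all 3 lines are above it in the same 8.

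The 250 bases before the annotated start of 3 of these genes, of Pramel20 and of Zfp42, described next, are shown because the genes were low together in one line (RefSeq, GRCm38.p6, each read 5′ to 3′ on the gene's strand). Windows were matched by symbol for 21 of the 29 genes past the test. Capitals mark matches on either strand to 5 motifs: ATTTGCAT (the octamer bound by Pou5f1), CATTGTT (a Sox core), TGCACAC (reported for Zscan4), TGTNNATT (a Foxh1-type core) and TATAAA (the TATA box). Pramel20, which passed the test but was not on the early embryo list, is given beside its relative Pramel37.
Zscan4c: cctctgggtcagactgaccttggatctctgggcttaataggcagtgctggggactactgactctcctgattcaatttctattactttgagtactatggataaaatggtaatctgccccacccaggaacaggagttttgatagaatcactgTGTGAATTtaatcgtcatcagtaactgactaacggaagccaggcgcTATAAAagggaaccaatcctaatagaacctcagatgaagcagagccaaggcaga
Pramel37: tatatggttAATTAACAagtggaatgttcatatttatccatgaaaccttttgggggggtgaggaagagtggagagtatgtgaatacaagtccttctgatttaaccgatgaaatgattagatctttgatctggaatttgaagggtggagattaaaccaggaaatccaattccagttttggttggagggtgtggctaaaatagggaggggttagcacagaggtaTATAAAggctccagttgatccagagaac
Pramel20: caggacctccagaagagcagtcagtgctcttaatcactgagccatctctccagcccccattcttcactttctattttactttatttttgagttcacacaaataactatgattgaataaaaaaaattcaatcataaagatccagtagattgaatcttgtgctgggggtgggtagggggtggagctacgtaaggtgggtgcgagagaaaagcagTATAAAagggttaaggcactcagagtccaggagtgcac
AF067061: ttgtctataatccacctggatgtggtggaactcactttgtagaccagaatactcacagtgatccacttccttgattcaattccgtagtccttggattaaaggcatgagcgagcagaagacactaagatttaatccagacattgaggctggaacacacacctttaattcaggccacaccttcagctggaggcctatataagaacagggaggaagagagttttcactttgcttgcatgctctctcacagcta
Zfp42: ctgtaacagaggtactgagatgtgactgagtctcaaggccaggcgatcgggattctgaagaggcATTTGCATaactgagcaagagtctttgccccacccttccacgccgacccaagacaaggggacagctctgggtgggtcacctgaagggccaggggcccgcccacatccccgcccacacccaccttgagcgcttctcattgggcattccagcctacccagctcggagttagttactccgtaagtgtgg
The windows lie at chr7:11005495-11005744 on the plus strand (Zscan4c), chr5:94070546-94070795 on the minus strand (Pramel37), chr4:143567217-143567466 on the plus strand (Pramel20), chr13:120262845-120263094 on the plus strand (AF067061) and chr8:43307010-43307259 on the minus strand (Zfp42). TATAAA begins at -54 in Zscan4c, -28 in Pramel37 and -38 in Pramel20, counted from the start. This motif occurs in 12.37% of 32851 windows of the same length. TGTNNATT lies at -100 in Zscan4c and -241 in Pramel37 and occurs in 10.93% of windows. AF067061 holds none of the 5. Zfp42 holds the octamer at -186, which occurs in 1.6% of windows, a motif of the mouse Rex1 promoter known to bind Pou5f1. CATTGTT (3.29% of windows) and TGCACAC (3.67%) were not matched in these 5 windows. G and C made up 40.0% to 44.8% of the windows of Zscan4c, Pramel37, Pramel20 and AF067061 and 58.4% of the Zfp42 window, against a median of 52.4%.

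Naive pluripotency genes did not move together. Zfp42, also called Rex1, a zinc finger gene used as a marker of the naive state, read 12.25, 12.10 and 12.21 in the lines and 9.73 in LinPos_iPSC. ESC stood at 12.22 and MEF_iPSC at 11.60, so LinPos_iPSC was the low array. The difference was 5.49-fold (limma, adjusted p = 0.0221), and Zfp42 was the only 1 of 24 measured members past the test. Over all genes tested, 0.35% passed. Of these 24, 9 were higher in the lines and 15 lower, beside 50.48% and 49.52% of all genes. The median of the list was -0.28. At an unadjusted p under 0.05 (limma), 5 were higher and 7 lower. These were 20.83% and 29.17% of the list, beside 8.855% and 8.312% of all genes.

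Other members fell on both sides of LinPos_iPSC without passing the test. Nr5a2, a nuclear receptor that can stand in for Pou5f1 in reprogramming, read 8.55, 8.58 and 8.88 against 7.23 (difference 1.44, adjusted p = 0.0834). Dppa3, also called Stella, a maternal factor that protects DNA methylation in the zygote, read 9.81, 9.72 and 10.09 against 8.49 (1.38, adjusted p = 0.0834). In the other direction, Sox2 read 9.995, 9.90 and 9.77 against 10.93 (-1.04, adjusted p = 0.0944), but a second Sox2 probe differed by only -0.24. Tbx3, a T-box factor of the naive network, read 10.62, 10.10 and 9.89 against 11.83 (-1.62, adjusted p = 0.116), and its 2 other probes differed by -1.68 and -1.64. Klf4 differed by -0.68 and Nanog by -0.22. For Nr5a2 and Dppa3 ESC stood with the lines, at 8.73 and 9.75.

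**Figure D4:**
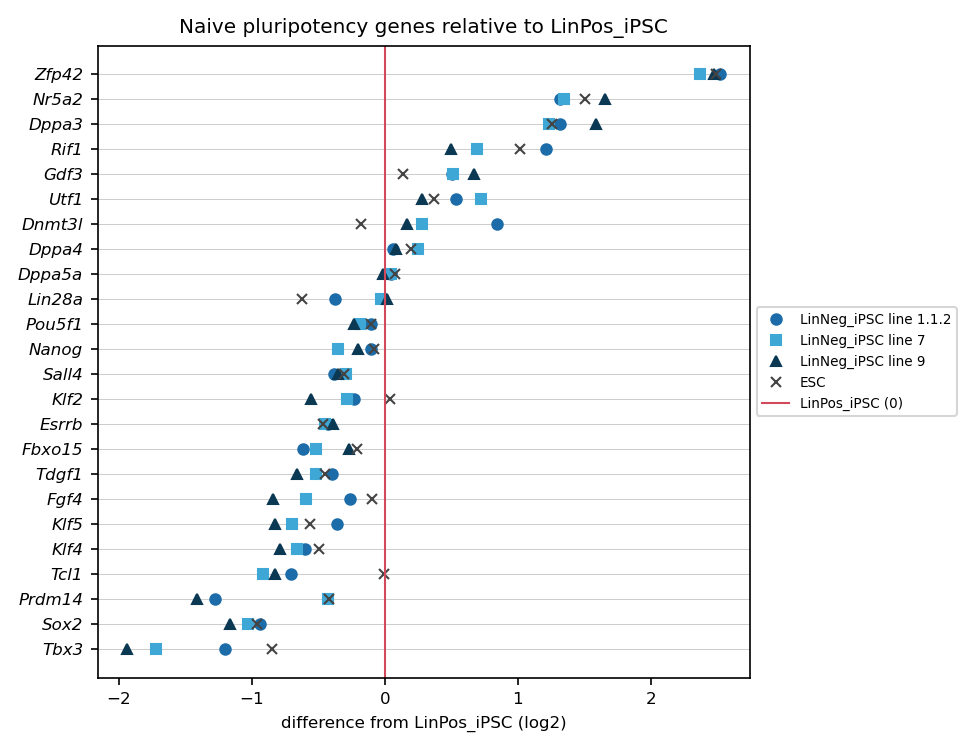
Difference from LinPos_iPSC in log2 intensity (x axis) of 24 naive pluripotency genes for the 3 LinNeg_iPSC lines and ESC, with LinPos_iPSC at 0. Zfp42, Nr5a2 and Dppa3 lie right of 0 on all 4 arrays and Tbx3 and Sox2 left of it.

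Of the 4 reprogramming factors 3 were measured. On the tested probes, Pou5f1, Sox2 and Klf4 were lower in all 3 lines than in LinPos_iPSC, as were 32.1% of all genes. Of the 3, 0 passed the test, while 2 had an unadjusted p under 0.05 (limma), beside 17.17% of all genes. A second Pou5f1 probe read 12.63, 12.43 and 12.3 against 12.47, so line 1.1.2 lay above LinPos_iPSC. The second Sox2 probe differed by -0.24, and the other Klf4 probes by -1.03 and -0.89. Myc was below background on all 4 arrays. Probe sequences were not available, so whether these probes separate a transgene from the cell's own gene could not be checked.

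The 2 Lefty genes, both secreted inhibitors of Nodal signalling, went opposite ways. Lefty1 read 12.26, 12.47 and 12.50 in the lines and 10.55 in LinPos_iPSC, a 3.63-fold difference (limma, adjusted p = 0.0461). ESC stood at 11.19 and MEF_iPSC at 10.89, so the lines were the high arrays. Lefty2 read 10.81, 10.68 and 11.31 against 12.23 and did not pass (-1.30, adjusted p = 0.142). ESC was lower still, at 9.93. Of 14 measured genes of the Nodal, Lefty and TGF-beta list, 11 were higher in the lines and 3 lower, with a median of 0.31. Over all genes, 50.48% were higher. Lefty1 alone of the 14 passed the test. At an unadjusted p under 0.05 (limma), 4 were higher and 2 lower. These were 28.57% and 14.29% of the list, beside 8.855% and 8.312% of all genes. Skil, a repressor of SMAD signalling, differed by 0.98 (adjusted p = 0.0946), the receptor Tgfbr2 by 0.77 and the ligand Nodal by 0.26. Tdgf1, the Nodal co-receptor, differed by -0.53.

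Genes outside the pluripotency lists were also bright in the lines and dim in LinPos_iPSC. Csrp1, a LIM-domain protein of the actin cytoskeleton, read 8.07, 8.04 and 8.05 against 4.83, at least 5.71-fold (limma, adjusted p = 0.0112). Trim59, a member of the TRIM ubiquitin ligase family, read 8.49, 8.72 and 8.74 against 5.10, at least 8.62-fold (adjusted p = 0.0128). ESC and MEF_iPSC were bright for both genes, at 8.11 and 8.38 for Csrp1 and 8.63 and 8.85 for Trim59. Lpar4, a lysophosphatidic acid receptor, read 7.64, 7.82 and 7.72 against 5.46, at least 4.55-fold, and was bright in ESC and MEF_iPSC too. Ttc27 read 8.88, 9.04 and 9.11 against 6.49, which was above background, a 5.73-fold difference.

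Some of the 26 higher genes were low in LinPos_iPSC and in MEF_iPSC alike. Apoa2, an apolipoprotein of high-density lipoprotein, read 8.22, 8.23 and 8.32 in the lines and 7.70 in ESC. It was below background in LinPos_iPSC, at 4.71, and in MEF_iPSC, at 5.44, and the lines exceeded LinPos_iPSC by at least 6.56-fold (adjusted p = 0.0112). Tomm22, a receptor of the mitochondrial import pore, read 9.95, 9.87 and 9.86 against 7.71, with 9.89 in ESC and 7.59 in MEF_iPSC. The other 10 measured mitochondrial import genes differed by at most 0.38 in size. Uap1, which makes UDP-N-acetylglucosamine, read 8.66, 8.89 and 8.86 against 6.51, with 8.85 in ESC and 7.03 in MEF_iPSC. 2210409E12Rik read 9.94, 9.37 and 9.20 against 6.30, with 9.79 and 6.54. MEF_iPSC was nearer to LinPos_iPSC than to the lines at 7 of the 26 higher genes. The same share over all genes was not computed, so this count marks no pattern.

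Other probes bear on 6 of the 29 genes. They had 8 further probes above background, of which 6 pointed the same way. For Casp9, an initiator caspase, the tested probe was at least 4.83-fold brighter in the lines, but a second probe differed by -1.15, so no change is claimed for it. Crmp1, a protein of neuronal semaphorin signalling, had a second probe at 4.97, 4.83 and 6.06 in the lines and 4.88 in LinPos_iPSC, above background on 1 of the 4 arrays. The second probe of Pramel37 read 6.07, 5.53 and 6.03 against 5.12. That of Wdr46, a nucleolar protein, read 7.43, 7.61 and 7.08 against 4.76, and that of Gm3696 read 5.54, 6.24 and 5.94 against 4.61.

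A further 5 of the higher genes fell outside the rule for naming and were chosen after their values were seen. They were Slc40a1 (the iron exporter ferroportin), Aim2 (a sensor of cytosolic DNA), Ccng2 (a cyclin G), Gm20767 and Cemip2. Slc40a1 read 7.31, 7.51 and 7.66 against 5.50, with 5.94 in ESC, so that ESC was nearer to LinPos_iPSC. It and Lefty1 were the only 2 of the 26 for which this held.

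In LinPos_iPSC 3 genes were higher. Vax2, a homeobox factor of the developing eye, read 5.66, 5.29 and 5.41 in the lines and 8.18 in LinPos_iPSC, at least 6.10-fold (limma, adjusted p = 0.0223). ESC stood at 6.91. B3galt6, a galactosyltransferase of the proteoglycan linker, read 5.78, 5.48 and 5.35 against 7.91, at least 4.91-fold (adjusted p = 0.0421). Aspg, an asparaginase, was below background in all 3 lines and read 6.49 in LinPos_iPSC, at least 1.93-fold (adjusted p = 0.0419).

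The rule for naming also took the widest gaps in this direction, and the following did not pass the test. Tgm2, a transglutaminase that crosslinks proteins, read 8.10, 7.37 and 7.00 against 10.94 (-3.45). Emb, the membrane glycoprotein embigin, read 7.79, 6.68 and 8.96 against 11.09 (-3.27), with 5.74 in ESC and 11.78 in MEF_iPSC. Ipp differed by -3.03, the X-linked lymphocyte-regulated gene Xlr4a by -2.23 (adjusted p = 0.0585), Tenm4, a teneurin, by -2.09 and Tmem108 by -2.00. C1qtnf12 differed by -1.76 and Ly6g6e by -1.73. The spread between the lines was wide for Emb (SD 1.14) and Ipp (SD 0.99). Of the 10 widest gaps in this direction 6 genes were above background in LinNeg_BM, beside 78.77% of all genes tested.

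Atf4, the transcription factor of the amino acid response, lay just outside the threshold. It read 10.27, 10.43 and 10.13 in the lines, 8.46 in LinPos_iPSC, 10.56 in ESC and 7.03 in MEF_iPSC (difference 1.82, limma, adjusted p = 0.051). Of 20 measured genes of the Atf4 and amino acid stress list, 6 were higher in the lines and 14 lower. Over all genes, 50.48% were higher and 49.52% lower. Of the 20, 0 passed the test, beside 0.35% of all genes. At an unadjusted p under 0.05, 1 was higher, which was Atf4, and 6 were lower (5% and 30% of the list, beside 8.855% and 8.312% of all genes). Chac1, a glutathione-degrading enzyme, differed by -1.24 (adjusted p = 0.167), Shmt2, of mitochondrial serine metabolism, by -0.93, Atf3 by -0.86, Slc3a2 by -0.68 and Trib3 by -0.66. Asns, asparagine synthetase, differed by -0.26.

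Genes of DNA methylation gave 1 large difference. Dnmt3b, a de novo DNA methyltransferase, read 12.31, 12.44 and 12.33 against 11.14 and did not pass (1.22, adjusted p = 0.078), and its second probe differed by 1.04. Dnmt1, the maintenance enzyme, differed by -0.20. Of the 15 measured DNA methylation and polycomb genes, 8 were higher and 7 lower, beside 50.48% and 49.52% of all genes. Their median was 0.06, and 0 passed the test. An unadjusted p under 0.05 (limma) was found for 3, 20% of the list beside 17.17% of all genes. Imprinted genes, expressed from one parental copy, had 13 of 15 higher in the lines, beside 50.48% of all genes. Their median was 0.45, and 0 passed the test. Again 3, or 20%, had an unadjusted p under 0.05, a share near the 17.17% of all genes. Grb10, a growth inhibitor, read 8.86, 9.02 and 8.74 against 7.71 (1.16, adjusted p = 0.0907). Dlk1 read 7.75, 10.45 and 7.83 against 7.35, so line 7 stood apart from the other two.

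Markers of other cell types were summed on each array. Fibroblast or feeder genes had 17 of 18 higher in the lines, beside 50.48% of all genes, with a median of 0.61. Their summed linear level over 21 genes on the array was 11630, 13780 and 10950 in the lines and 7653 in LinPos_iPSC. It was 7531 in ESC and 11010 in MEF_iPSC, so MEF_iPSC lay within the range of the lines. Extraembryonic endoderm genes had 12 of 15 higher, with a median of 0.52. Their summed levels over 19 genes on the array were 11550, 7109 and 10040 against 8367, with 5941 in ESC and 5706 in MEF_iPSC. Dab2, an adaptor protein of endoderm, read 10.17, 8.54 and 9.95 against 7.15. In both lists 0 genes passed the test (limma), with 2 fibroblast genes (11.11%) and 4 endoderm genes (26.67%) at an unadjusted p under 0.05, beside 17.17% of all genes. The part of such cells in the other differences was not tested.

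Few blood genes were above background in these lines. Of 4 measured hematopoietic stem and progenitor genes, 3 were lower in the lines, beside 49.52% of all genes. Of the 4, 0 passed the test, beside 0.35% of all genes. At an unadjusted p under 0.05 (limma) stood 1 (25%), beside 17.17% of all genes. This 1 was Gata2, a transcription factor of blood progenitors. Gata2 read 5.28, 5.61 and 4.91 against 7.09, at least 2.85-fold (limma, adjusted p = 0.0907). It stood at 5.99 in ESC and 6.22 in MEF_iPSC. Of 8 measured pan-leukocyte genes, 3 were higher in the lines and 5 lower, beside 50.48% and 49.52% of all genes. Their median difference was -0.07. Of the 8, 3 (37.5%) had an unadjusted p under 0.05 (limma), beside 17.17% of all genes. The summed linear level over 19 genes on the array was 8906, 6417 and 5981 in the lines and 13700 in LinPos_iPSC. ESC had 6608 and MEF_iPSC 5363. Without Laptm5, the brightest member, the sum was 1904, 1953 and 2096 against 2290, with 1704 in ESC and 2402 in MEF_iPSC. Laptm5, a lysosomal protein of blood cells, read 12.77, 12.12 and 11.92 against 13.48, and stood at 12.26 in ESC.

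Chromosome 8 stood higher in the lines than in LinPos_iPSC. Over its 450 tested genes the median difference was 0.11 for line 1.1.2, 0.26 for line 7 and 0.36 for line 9, against -0.03 for ESC and 0.43 for MEF_iPSC. The next highest median in any line was 0.13, on the X chromosome. On chromosome 14 line 1.1.2 and ESC lay lower, at -0.19 and -0.17. Zfp42 is a chromosome 8 gene, and its difference of 2.46 compares with a median of 0.28 for its 10 nearest tested neighbours. After each chromosome was centred, 31 genes passed the test, all 29 among them. The number of chromosome copies was not measured.

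**Figure D5:**
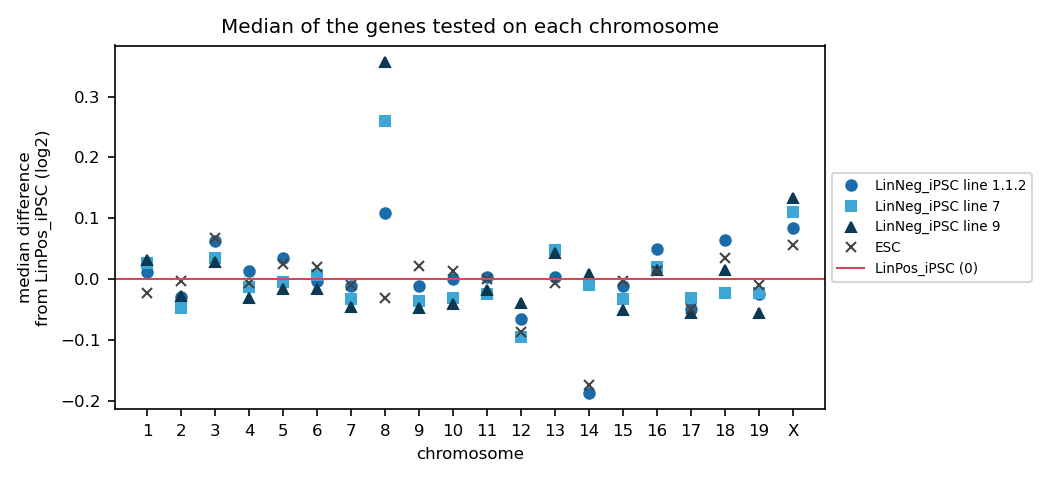
Median difference from LinPos_iPSC in log2 intensity (y axis) over the tested genes of each chromosome (x axis), for the 3 LinNeg_iPSC lines and ESC. On chromosome 8 the lines lie at 0.11, 0.26 and 0.36 and ESC at -0.03.

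The 29 genes lay on 15 chromosomes, with 6 of the higher genes on chromosome 1. Tcstv3, AF067061 and Gm20767 are close neighbours on chromosome 13, where AF067061 is 1 of the 2 tested genes between Tcstv3 and Gm20767. Apoa2 and Uap1 on chromosome 1 are separated by 22 protein-coding genes, of which 2 were tested, with a median of 0.16. Abhd16a, a lipase, and Wdr46 on chromosome 17 have 36 tested genes between them with a median of -0.08. The 10 nearest tested neighbours of Zscan4c had a median of -0.08 and those of Csrp1 0.06.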

How the data were processed

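Gene expression was measured on 7 arrays, and the comparison concerned 4 of them. The deposited intensity values, linear and bead-summarised, and the deposited detection p-values came in 1 table, which per the file headers has an intensity and a detection column for each sample. The authors' second deposited table held log2 values and served as an alternative. The submitters' processing notes name BeadStudio 3.2, RMA and lumi without their roles. Per the labels' protocols, 500 ng of RNA was amplified for 12 h.

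Intensities were background-corrected with limma 3.58.1 in R 4.3.3 (negative controls inferred from detection p-values, offset 16), quantile-normalized over 7 arrays and taken to log2. Genes were named from the platform annotation (23978 probes with 1 symbol, 1719 with none, 0 with several), updated through RefSeq identifiers (23962 matched). The probe with the highest mean over the 4 arrays stood for its gene. One limma fit with 5 groups gave LinNeg_iPSC minus LinPos_iPSC, with Benjamini-Hochberg adjustment over 8289 genes and a threshold of 0.05. The spread came from the 3 lines (2 residual and 3.143 prior degrees of freedom), so LinPos_iPSC was assumed to vary like them, and an exact permutation test of 3 against 1 cannot go below 0.25. For a bound, a dim value was raised to that array's lowest value above background where it lay under it.

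Named were up to 20 genes per direction past the test by size, the 10 widest gaps where fewer than 10 passed, up to 4 members per list and a fixed set. Of the fixed set, Myc, Apoa1, Ptprc and Cd34 were below background on all 4 arrays and Kit was not found by that name. Members and lists were chosen with earlier results of these data known. The fit was tested on simulated data. Alternatives numbered 15. The number of arrays limits the precision, and no slide or scan information was used.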

Additional observations from a re-analysis of the deposited data

How the results depend on the processing

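Leaving out 1 line gave 0 to 0 genes past the test, 0 to 0 higher and 0 to 0 lower, for any of the 3 lines. Among the 12 alternatives that kept all lines, scaling arrays to a common median gave 125 genes (67 higher, 58 lower) and moved the median of all genes to -0.14. Cyclic loess gave 47 (39 higher, 8 lower). Normexp with offset 50 gave 194 (110 higher, 84 lower), eBayes with an intensity trend 379 (221 higher, 158 lower), a filter on 3 of the 4 arrays 102 (79 higher, 23 lower) and no filter 19 (17 higher, 2 lower). The other 6 gave 26 to 31. The share of higher genes was 89.66% as reported and 53.6%, 56.7%, 58.31% and 77.45% with median scaling, normexp, the trend and the filter on 3 arrays. The deposited log2 table gave 26 genes, 21 of them shared with the 29, and cyclic loess, normexp, the trend and median scaling kept all 29.

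Of the 29 genes, 17 passed under each of the 12 alternatives that measured them (Aspg in 11), Zscan4c, Zfp42, Trim59, Csrp1 and Apoa2 among them. Lefty1, Wdr46, Slc40a1 and Cemip2 passed under only 9 of the 12, and 2210409E12Rik, Gm5662 and Pramel20 under 10. Aim2, Abhd16a and Ccng2 passed under 11. Vax2 passed under 10 and B3galt6 under 9 of the 11 alternatives that measured them. Of 432 gene values 0 changed sign. Of 1988 values of 134 other named genes, 104 newly passed and 5 changed sign. These were Ywhaz with median scaling (-0.0147), Cd3e without line 1.1.2 (range over the lines left out -0.0364 to 0.357), Lyz1 without line 7 (-0.173 to 0.889), and Hhex with median scaling (-0.112) and without line 1.1.2 (-0.0782 to 0.0953). The cause was not tested. The early embryo list had 4 to 8 genes past the test with all lines kept. No paired analysis was possible, because LinPos_iPSC had 1 array and the labels do not state whether the lines came from separate animals. Genes near background have bounds only, and differences cannot be assigned to origin with 1 LinPos_iPSC line.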

Other observations

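The genes named here were list members that did not pass the test. Msmo1, a sterol methyl oxidase encoded on chromosome 8, read 9.75, 10.33 and 10.66 in the lines, 8.09 in LinPos_iPSC, 9.57 in ESC and 11.34 in MEF_iPSC (limma, adjusted p = 0.0944). The other 13 measured cholesterol synthesis genes differed by at most 0.57 in size. Rhox5, an X-linked homeobox gene, read 11.59, 9.74 and 10.29 against 8.81 (SD between lines 0.95). Hdc, the histamine-making enzyme of mast cells, read 6.33, 6.68 and 6.97 in the lines and was below background in LinPos_iPSC, at least 2.17-fold (adjusted p = 0.0966). LinNeg_BM had 12.11, ESC 6.11 and MEF_iPSC 6.75.

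Eif2s3y, a Y-linked translation factor gene, was below background in all 3 lines, at 4.55, 4.56 and 4.54, and in ESC, at 4.43. It read 5.72 in LinPos_iPSC, at least 1.13-fold above the lines (limma, adjusted p = 0.078), and 7.73 in MEF_iPSC. Uty, also Y-linked, read 5.48, 5.003 and 5.82 in the lines, above background in line 9 only, and was below background in LinPos_iPSC, at 4.78. Its difference was 0.65 (limma, adjusted p = 0.397), and no bound could be given for it. Xist, the RNA of the inactive X chromosome, read 5.02, 5.72 and 5.25 in the lines, 5.24 in LinPos_iPSC and 11.89 in LinNeg_BM.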
